A study of Mus musculus with 9 samples.

Results

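The gene group described here holds the genes whose expression was lower after 3 days of induced reprogramming than in the starting fibroblasts, and lower again in the finished induced pluripotent stem (iPS) cells. It was chosen by the measured values. A gene entered when its mean log2 value was at least 1 lower in the induced cells than in fibroblasts and at least 1 lower in iPS cells than in the induced cells, so that each step was at least 2-fold. Of 19937 genes on the array, 226 met both thresholds. The collagen, Hox and Serpin genes, predicted and clone-named genes, and Thy1, Osr1 and Vcam1 were set aside. This removed 7 of the 226 (Col6a2, Gm13375, Hoxc6, Osr1, Serpinf1, Serpinh1 and Thy1), and 219 genes remained.

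The study followed a secondary reprogramming system in mouse cells, in which cells derived from already reprogrammed ones are induced again, with 3 arrays for each of 3 stages. The fibroblasts came from mice made with iPS cells that had been reprogrammed by Tet1, Sox2, Klf4 and c-Myc (TSKM), and were taken at passage 4 without doxycycline. The TSKM-3D cells were the same kind of fibroblasts at passage 4, given doxycycline for 3 days while their feeder medium was replaced by embryonic stem cell medium with LIF, so that factor induction and the change of medium cannot be told apart. The iPS cells, labelled as a cell line, came from the same system, were at passages 10 to 15, and grew on mitomycin C treated mouse embryonic fibroblasts, which were removed by plating the suspension for 0.5 h before RNA was taken. The labels do not give how many of these feeder fibroblasts were left. All 3 groups share the strain OG2-GFP/Rosa26-M2rtTA, in which the doxycycline-responsive activator M2rtTA is placed at the broadly active Rosa26 locus. One fibroblast array, the third, is labelled inconsistently: its cell type field speaks of 3 days of induction, but the title, the source and the passage all give fibroblasts, and it was treated as such. Separate cultures behind the arrays of a stage are not stated, so that the spread between them may be technical.

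Fibroblasts are the cells that build and remodel connective tissue. They secrete matrix proteins together with the enzymes that crosslink and trim them, they hold on to that matrix through adhesion receptors, and they both send and receive growth factor and cytokine signals. A set of mesenchymal transcription factors, including the SNAI, TWIST and ZEB families, keeps this state and represses epithelial genes. Loss of this programme is a known early part of reprogramming to iPS cells.

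The labels of the stages were checked against marker genes. The mean of 7 fibroblast markers was 10.18 to 10.3 on fibroblast arrays, 8.62 to 8.634 on TSKM-3D arrays and 6.909 to 7.013 on iPS arrays. Pdgfra and Twist2 of this list belong to the group of 219 (28.6%, against 1.098% of all genes), so the rule sets their falls. By limma, 4 of the 7 fell at TSKM-3D and 5 in iPS against TSKM-3D, against 7.58% and 8.57% of all genes. The mean of 8 pluripotency markers was 4.947 to 4.997 on fibroblast arrays, 5.023 to 5.383 on TSKM-3D arrays and 11.24 to 11.37 on iPS arrays. A list of 16 macrophage markers averaged 6.536 to 6.611 on fibroblast arrays, 5.389 to 5.572 on TSKM-3D arrays and 5.999 to 6.042 on iPS arrays. Of these 16, 6 fell at TSKM-3D by limma, a larger share than the 7.58% of all genes that did. None is among the 219 genes, which are 1.098% of all genes, so nothing is read from their absence. The part of these markers in the result was not tested. The mean of 9 smooth muscle markers was 8.375 to 8.44, 7.834 to 7.914 and 7.522 to 7.601, and 1 of them, Cnn1, is in the group. In such bulk samples fewer cells of a type and less RNA per cell cannot be told apart.

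Sequences from RefSeq around the transcription start (build GRCm38.p6, 250 bases before to 50 after) were found for 166 of the 219 genes. Shown first are the 4 genes with the largest total fall that have a sequence there, all of which are described further on. Ppbp lies at chr5:90768268-90768567 on the plus strand, Olfml3 at chr3:103737952-103738251 on the minus strand, S100a4 at chr3:90603520-90603819 on the plus strand and Ptn at chr6:36810130-36810429 on the minus strand. Capitals mark the letters of a searched motif. Ppbp has the TATA letters TATAAA at -30 and -8 from the start, a TEAD motif at -178 and a CArG box at -87. Olfml3 has a TEAD motif at -64 and the reverse complement of the GC box at -19, -13 and -8, S100a4 has TATAAA at -31, and Ptn holds none of the motifs in this window.
Ppbp: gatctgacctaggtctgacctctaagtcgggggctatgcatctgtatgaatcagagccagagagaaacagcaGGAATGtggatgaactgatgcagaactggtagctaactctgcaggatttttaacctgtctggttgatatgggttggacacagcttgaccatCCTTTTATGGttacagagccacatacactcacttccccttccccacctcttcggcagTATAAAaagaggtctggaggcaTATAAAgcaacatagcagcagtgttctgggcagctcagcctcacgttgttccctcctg
Olfml3: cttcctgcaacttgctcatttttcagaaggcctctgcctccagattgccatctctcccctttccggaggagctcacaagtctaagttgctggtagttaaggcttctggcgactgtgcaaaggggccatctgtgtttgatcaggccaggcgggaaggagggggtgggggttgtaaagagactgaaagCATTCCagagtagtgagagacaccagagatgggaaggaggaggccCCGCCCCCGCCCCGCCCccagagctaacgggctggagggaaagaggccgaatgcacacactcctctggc
S100a4: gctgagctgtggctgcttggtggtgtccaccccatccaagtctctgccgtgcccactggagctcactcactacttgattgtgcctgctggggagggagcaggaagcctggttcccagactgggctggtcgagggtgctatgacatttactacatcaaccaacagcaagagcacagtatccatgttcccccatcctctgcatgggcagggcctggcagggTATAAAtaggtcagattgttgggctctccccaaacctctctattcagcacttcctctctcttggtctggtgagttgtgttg
Ptn: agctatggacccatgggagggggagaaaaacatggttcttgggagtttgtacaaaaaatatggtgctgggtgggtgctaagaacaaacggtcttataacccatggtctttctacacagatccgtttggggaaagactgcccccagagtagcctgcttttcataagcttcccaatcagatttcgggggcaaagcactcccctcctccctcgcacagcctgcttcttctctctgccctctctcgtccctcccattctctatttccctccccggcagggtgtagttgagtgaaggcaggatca

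The 166 promoters had a median of 17 CpG dinucleotides and 60.8% G and C, against 15 and 57.7% over the 15561 measured genes with a sequence. At most 5 CpG were found in 16.9% of the group's promoters and in 28.1% of all. Each motif was searched on both strands. The GC box, GGGCGG, was in 64.5% of the group's promoters and 49.9% of all, and TATAAA in 8.43% and 12.1%. The letters CAGGTG, an E-box that SNAI and ZEB proteins are known to bind, were in 9.04% and 19.2%. The AP-1 letters TGAGTCA were in 3.61% and 4.52%, the TEAD letters GGAATG in 13.3% and 13.1%, and the RUNX letters TGTGGT in 10.2% and 14.2%. The STAT letters TTCNNNGAA were in 9.04% and 7.85%, the C/EBP letters TTGCNNCAA in 4.22% and 1.89%, and the CArG box in 3.01% and 1.43%. These are matches of letters, not shown binding sites, and the shares move with base composition. By CpG class, the 28 genes with at most 5 CpG had a median total fall of 3.42, the 69 with 6 to 19 CpG one of 3.13, and the 69 with 20 or more one of 2.83 (log2).

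The falls below are log2 differences written as positive numbers, fibroblast minus TSKM-3D for the first step and TSKM-3D minus iPS for the second. Since these values chose the genes, they are a description and carry no test. The first fall had a median of 1.39 and reached 3.61, and the second had a median of 1.44 and reached 3.53. The total fall ran between 2.1 and 5.45 with a median of 2.99, which is 7.94-fold. All 219 were also called lower at each step by limma (adjusted p under 0.05 and 2-fold), as were 7.58% of all genes at the first step, 8.57% at the second and 1.13% at both, and nothing is read from this. The fold threshold alone set that count. On single arrays, 218 of the 219 had all fibroblast values above all TSKM-3D values and these above all iPS values, an order that 10.5% of all genes showed. The exception was Mindy2, a deubiquitinase, whose second TSKM-3D array (5.76) lay just under its highest iPS array (5.77).

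The first fall was the larger one for 100 genes and the second for 119. The difference between the steps was within 2 standard errors for 89 genes. Beyond that, the first fall was larger for 52 and the second for 78. Genes with identical values on TSKM-3D arrays may have standard errors that are too small. At TSKM-3D a gene had on median 49.0% of its total fall behind it (25.2% to 76.1%), and the thresholds themselves bound this share. Means lay below the median of all rows for 8 genes at TSKM-3D and for 70 in iPS cells. Whether such low values limit the second fall, and so raise the share, was not tested. Both steps reached a log2 fall of 2 in 7 genes, whereas both stayed under 1.5 in 69.

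**Figure D1:**
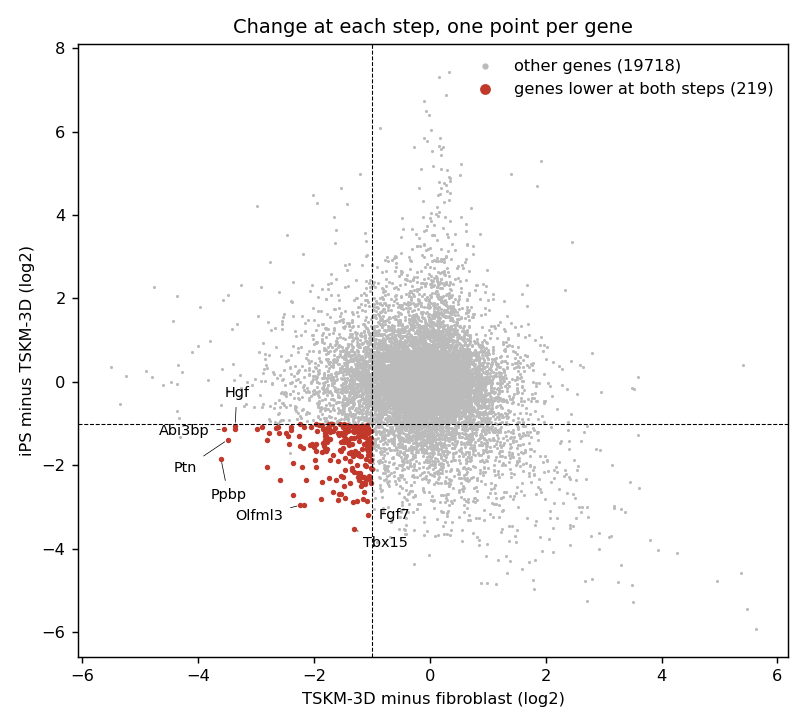
Each point is 1 of 19937 genes, with the change of its mean log2 value at TSKM-3D against fibroblasts on the x axis and in iPS against TSKM-3D on the y axis, and dashed lines at the thresholds of -1. The 219 genes (red) fill the lower left corner, where the 7 genes set aside are grey, with Ppbp, Abi3bp, Ptn and Hgf far along the first step and Tbx15 and Fgf7 far along the second.

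At the first threshold the genes just inside were Mcpt8, a basophil protease (first fall 1.00), Shox2, a limb homeobox factor (1.01), and Hacd4, of fatty acid elongation (1.01). Just outside it were Slc36a4, Ttc8 and Adgra2, each at 0.99. At the second threshold Ldb2, a LIM domain binding cofactor, Dclk1, a microtubule-associated kinase, and Gabarap were just inside at 1.00 each, and Sgcb (0.996), Bmp1 (0.99) and C1qtnf6 (0.99) just outside. Values on opposite sides of a threshold here differed by less than the standard error of a step.

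Of the secreted ligands and antagonists, 13 are in the group. Ppbp, a chemokine of the CXC family best known from platelets, had the largest total fall of all 219, with 10.59, 10.61 and 10.58 on fibroblast arrays, 6.99 on each TSKM-3D array and 5.43, 4.96 and 5.03 on iPS arrays. The TSKM-3D level was 12.2-fold below fibroblasts, and the iPS level a further 3.60-fold lower. Ptn (pleiotrophin), a heparin-binding growth factor, read 11.03, 11.02 and 10.92, then 7.53, 7.45 and 7.53, then 6.26, 5.81 and 6.27 at the 3 stages. Hgf (hepatocyte growth factor) read 8.86, 8.75 and 8.62, then 5.34, 5.46 and 5.34, then 4.30, 4.34 and 4.34. For these 3 genes most of the fall was present at TSKM-3D, between 66.1% and 76.1% of it. All 3 lay below the median of all rows in iPS cells (6.21), and Hgf did so already at TSKM-3D (5.38, against 6.10).

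The opposite balance was found in other ligands. Fgf7, the keratinocyte growth factor that mesenchyme supplies to epithelium, read 11.05, 10.94 and 11.03 in fibroblasts, 9.95, 9.90 and 9.95 at TSKM-3D and 6.70, 6.55 and 6.97 in iPS cells. Its first step was 2.1-fold and its second 9.12-fold, so 25.2% of the fall was present at TSKM-3D, the smallest share of the 219. The axon guidance ligands Slit3 and Sema3a had 29.3% and 37.4% of their falls behind them, Csf1, the growth factor of macrophages, 38.7%, and Gas6, the ligand of the TAM receptor kinases, 40.1%. The WNT antagonists of the group were Sfrp2 with falls of 1.24 and 1.75 and Dkk2 with 1.13 and 1.31, next to Ccn4, a matricellular WNT target (1.31 and 1.34). Il1rn, the interleukin 1 receptor antagonist, had 1.23 and 1.12, and C1qtnf12, a secreted metabolic regulator, 1.77 and 1.1. Of 68 measured growth factors, ligands and antagonists on a curated list, 24 fell and 9 rose at TSKM-3D, against 7.58% and 3.25% of all genes. In iPS against TSKM-3D 33 fell and 4 rose, against 8.57% and 6.48%, and 10 are in the group (14.7%, against 1.098%). The curated lists, here and below, were chosen with earlier results of these data known. Their counts come from the same comparisons that the rule used, so they are a description and no independent support.

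**Figure D2:**
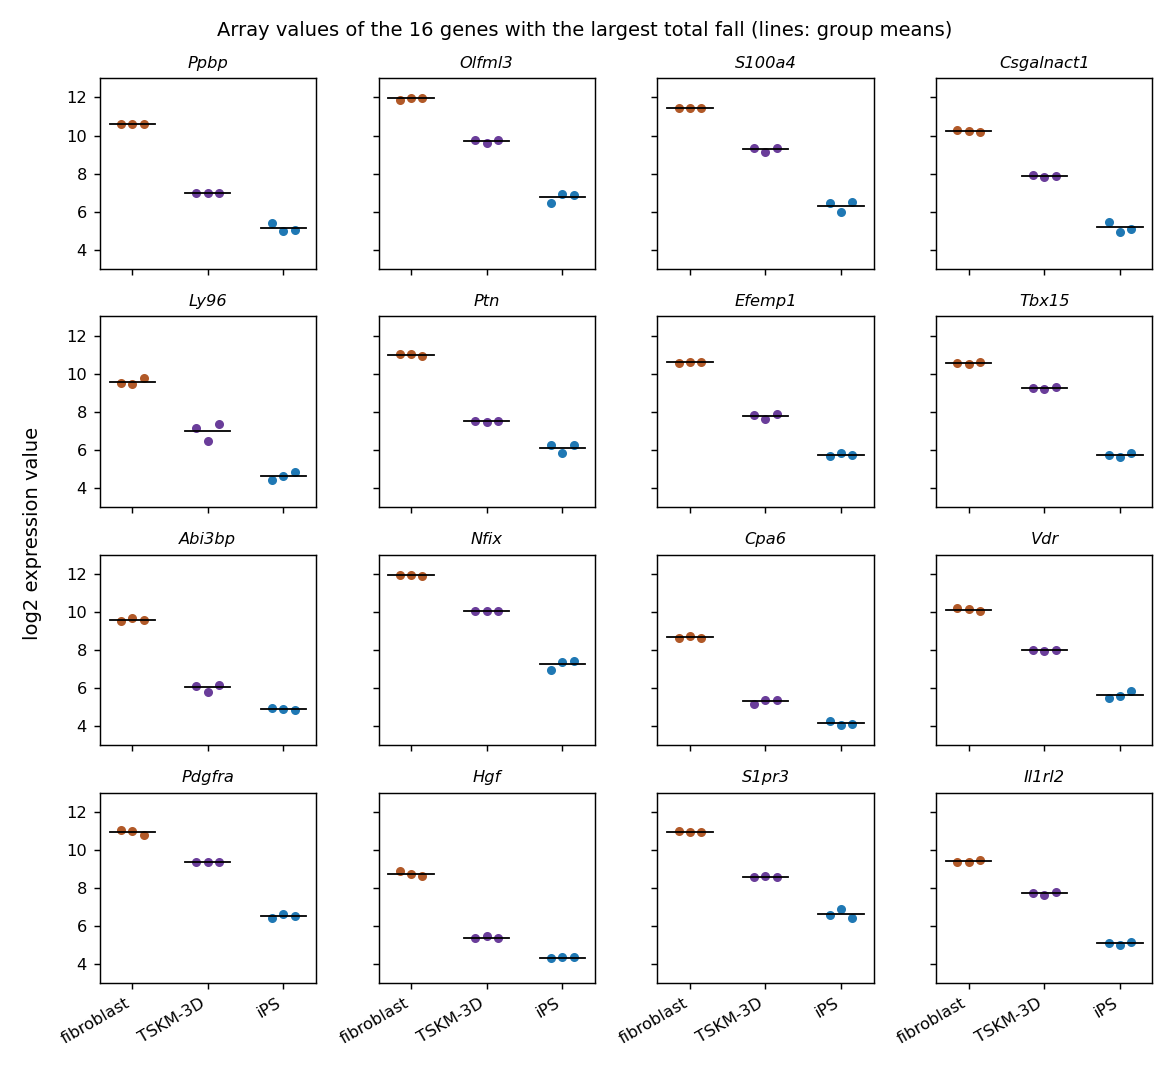
Log2 values on each array (points) and group means (lines) for the 16 genes with the largest total fall, in stage order. In all 16 the 3 groups do not overlap, and several genes have identical values on TSKM-3D arrays, among them Ppbp and Nfix.

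Matrix proteins numbered 14. Olfml3, an olfactomedin domain protein of the matrix, read 11.88, 11.99 and 11.98 in fibroblasts, 9.75, 9.60 and 9.79 at TSKM-3D and 6.46, 6.94 and 6.88 in iPS cells, a total of 36.5-fold. Efemp1 (fibulin-3) read 10.55, 10.62 and 10.60, then 7.85, 7.64 and 7.87, then 5.68, 5.83 and 5.70. Abi3bp, a matrix protein that binds collagen, read 9.52, 9.65 and 9.56, then 6.11, 5.80 and 6.15, then 4.92, 4.90 and 4.83. Olfml3 had the larger second step, and Efemp1 and Abi3bp the larger first one. The Abi3bp mean at TSKM-3D (6.02) was already below the median of all rows (6.10).

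Ogn (osteoglycin), a small leucine-rich proteoglycan, and Smoc2, a calcium-binding matricellular protein, resembled Abi3bp, with 72.7% and 64.2% of the fall present at TSKM-3D. Svep1, a large adhesion protein, Vcan (versican), the large chondroitin sulfate proteoglycan, and Mfap2, a microfibril component, were at the other end with 27.5%, 32.2% and 29.6%. Mfap5, the second microfibril-associated glycoprotein of the group, had 55.7%. Ecm1 fell mainly in the second step (1.05 and 2.27), while Aebp1, Npnt (nephronectin), Mgp (matrix Gla protein) and Prelp had total falls between 2.46 and 2.95.

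A list of 68 measured matrix proteins other than collagens held 12 of the 219 (17.6%, against 1.098% of all genes). By limma, 35 of the 68 fell and 4 rose at TSKM-3D, against 7.58% lower and 3.25% higher of all genes, and 27 fell and 2 rose in iPS against TSKM-3D, against 8.57% lower and 6.48% higher. Most of those that moved were therefore called at 1 step, not at both. Lum (lumican), outside the group, was 9.62 ± 0.03 in fibroblasts, 4.11 ± 0.35 at TSKM-3D and 4.48 ± 0.27 in iPS cells (SD, n = 3 each). Ccdc80 was 11.91 ± 0.02, 11.96 ± 0.09 and 9.12 ± 0.11 (SD, n = 3 each). Lum had its whole fall in the first step (limma change -5.51) and Ccdc80 in the second (-2.84). These genes outside the group, and the others below, were picked after their values were seen.

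Enzymes of the matrix and their inhibitors made up 16 genes. Cpa6, a carboxypeptidase of the matrix, read 8.61, 8.72 and 8.63 in fibroblasts, 5.15, 5.35 and 5.35 at TSKM-3D and 4.27, 4.05 and 4.12 in iPS cells. Mmp2, the gelatinase of fibroblasts, read 12.27, 12.21 and 12.09, then 11.04, 11.07 and 11.04, then 8.74, 8.92 and 8.63. Cpa6 had 74.8% of its fall at TSKM-3D and Mmp2 33.2%. The Cpa6 mean at TSKM-3D (5.28) was already below the median of all rows (6.10).

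Further proteases were Mmp19, Mmp23, Adam12, Adamts6, the collagen-degrading cathepsin Ctsk, the plasminogen activator Plat and the proprotein convertase Furin, with total falls between 2.70 and 3.73. The collagen-modifying hydroxylases, Plod3 and P3h3, and the FK506-binding protein Fkbp7 had totals of 2.34, 2.52 and 2.90. Of 48 measured matrix enzymes and inhibitors on a curated list, 24 fell and 0 rose at TSKM-3D, 25 fell and 1 rose in iPS against TSKM-3D, and 12 belong to the group (25%, against 1.098% of all genes). By comparison, 7.58% of all genes fell and 3.25% rose at the first step, and 8.57% fell and 6.48% rose at the second. The list's median change was -1.01 and -1.05, against 0.05 and -0.01 over all genes.

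Within enzyme families the members took different courses. The lysyl oxidases, which crosslink collagen and elastin, are represented by Loxl1 (falls of 1.58 and 1.90) and Loxl3 (2.19 and 1.59). Lox itself fell at TSKM-3D (limma change -2.44, adjusted p = 2.0e-09) and was 0.52 higher in iPS than in TSKM-3D cells, under the 2-fold threshold. Of the metalloproteinase inhibitors, Timp2 and Timp3 are in the group with totals of 2.48 and 2.50. Timp1 changed by -2.20 in the first step and by -0.35 in the second (adjusted p = 8.8e-08 and 0.043), and the second change was under 2-fold. Whether members of a family differed from each other at a step was not tested, here or in the families below.

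The 10 glycan synthesis genes included a run of chondroitin and dermatan sulfate enzymes. Csgalnact1, which starts chondroitin chains, read 10.27, 10.26 and 10.19 in fibroblasts, 7.94, 7.80 and 7.90 at TSKM-3D and 5.48, 4.95 and 5.09 in iPS cells, 33.4-fold in all. Chsy1, which lengthens them, and Chst14, which sulfates dermatan chains, had total falls of 2.49 and 3.44. Vcan, a core protein that carries chondroitin chains, is in the group too, as is the heparan sulfate core protein Gpc1. Arsj (an arylsulfatase), Chst2, St3gal1, B4galnt1, Gxylt2 and Manea completed the class, with totals between 2.27 and 3.43.

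Receptors formed a class of 26. Pdgfra, the PDGF receptor that marks mesenchymal cells, read 11.03, 11.00 and 10.80 in fibroblasts, 9.37, 9.34 and 9.34 at TSKM-3D and 6.41, 6.62 and 6.50 in iPS cells. Its partner Pdgfrb was lower at both steps as well, by 2.76 and 0.93, and missed the group on the second threshold. S1pr3, a sphingosine 1-phosphate receptor, read 10.99, 10.91 and 10.92, then 8.58, 8.59 and 8.54, then 6.58, 6.90 and 6.40. Tgfbr3 (betaglycan), the TGF-beta co-receptor, had falls of 2.00 and 1.57 and Smad3, a transducer of that pathway, 1.23 and 1.22.

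Several cytokine receptor chains are in the group. Osmr read 10.84, 10.82 and 10.78 in fibroblasts, 9.04, 8.74 and 9.07 at TSKM-3D and 6.62, 6.75 and 6.28 in iPS cells, and Il6st (gp130), with which it forms the oncostatin M receptor, read 11.79, 11.71 and 11.66, then 10.36, 10.23 and 10.38, then 8.65, 8.99 and 8.80. Lifr, which pairs with the same gp130 to receive LIF, was 7.69 ± 0.09, 7.59 ± 0.19 and 8.26 ± 0.06 (SD, n = 3 each) and passed the 2-fold threshold at neither step. Il4ra and Il13ra1, the chains of the type II interleukin 4 receptor, had totals of 2.98 and 3.85. Ifnar2 and Ifngr2, chains of 2 different interferon receptors, had 2.80 and 2.43.

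Ly96 (MD-2) and Tlr4, which together bind lipopolysaccharide, were both lower at each step. Ly96 read 9.49, 9.43 and 9.76 in fibroblasts, 7.13, 6.43 and 7.34 at TSKM-3D and 4.41, 4.64 and 4.81 in iPS cells. Tlr4 read 6.37, 5.97 and 6.47, then 5.22, 4.97 and 5.44, then 3.88, 3.97 and 4.44, values that lie below the median of all rows at the later stages. Cd14, the third lipopolysaccharide-binding partner and one of the macrophage markers, fell at TSKM-3D (limma change -1.30, adjusted p = 1.1e-06) and was 0.27 higher in iPS than in TSKM-3D cells, within 2-fold.

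Other receptors in the group were Il1rl2 (the interleukin 36 receptor), Tnfrsf1a, the anticoagulant receptor Thbd, the prostaglandin receptor Ptgfr, the GDNF receptor Gfra1, the WNT receptors Fzd1 and Fzd2, Plxdc2, Mr1, Neto2, Adgrl2, Clec2d and P2ry10b. Thbd and Plxdc2 had 30.1% and 32.0% of the fall at TSKM-3D, and Neto2 59.9%. Of 53 measured signalling receptors on a curated list, 18 fell and 4 rose at TSKM-3D, 32 fell and 1 rose in iPS against TSKM-3D, and 10 are in the group (18.9%, against 1.098% of all genes). Over all genes 7.58% fell and 3.25% rose at the first step, and 8.57% fell and 6.48% rose at the second.

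Ligands and their receptors moved together in some pairs and apart in others. Sema3a and its receptor Nrp1, with falls of 1.58 and 2.69, are both in the group. Ptn and its receptor Ptprz1 are as well, the receptor at low values (6.93, 5.81 and 4.68). Met, the receptor of Hgf, was 7.66 ± 0.06 in fibroblasts, 10.45 ± 0.22 at TSKM-3D and 5.71 ± 0.16 in iPS cells (SD, n = 3 each), so it rose by 2.79 where Hgf was 3.36 lower (limma for Met, adjusted p = 8.5e-09). Robo2, a receptor of Slit3, was 6.27 ± 0.07, 8.84 ± 0.24 and 5.84 ± 0.05 (SD, n = 3 each) and also rose at TSKM-3D. Axl, the receptor of Gas6, changed by -0.95 and -2.78 and missed the first threshold.

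**Figure D3:**
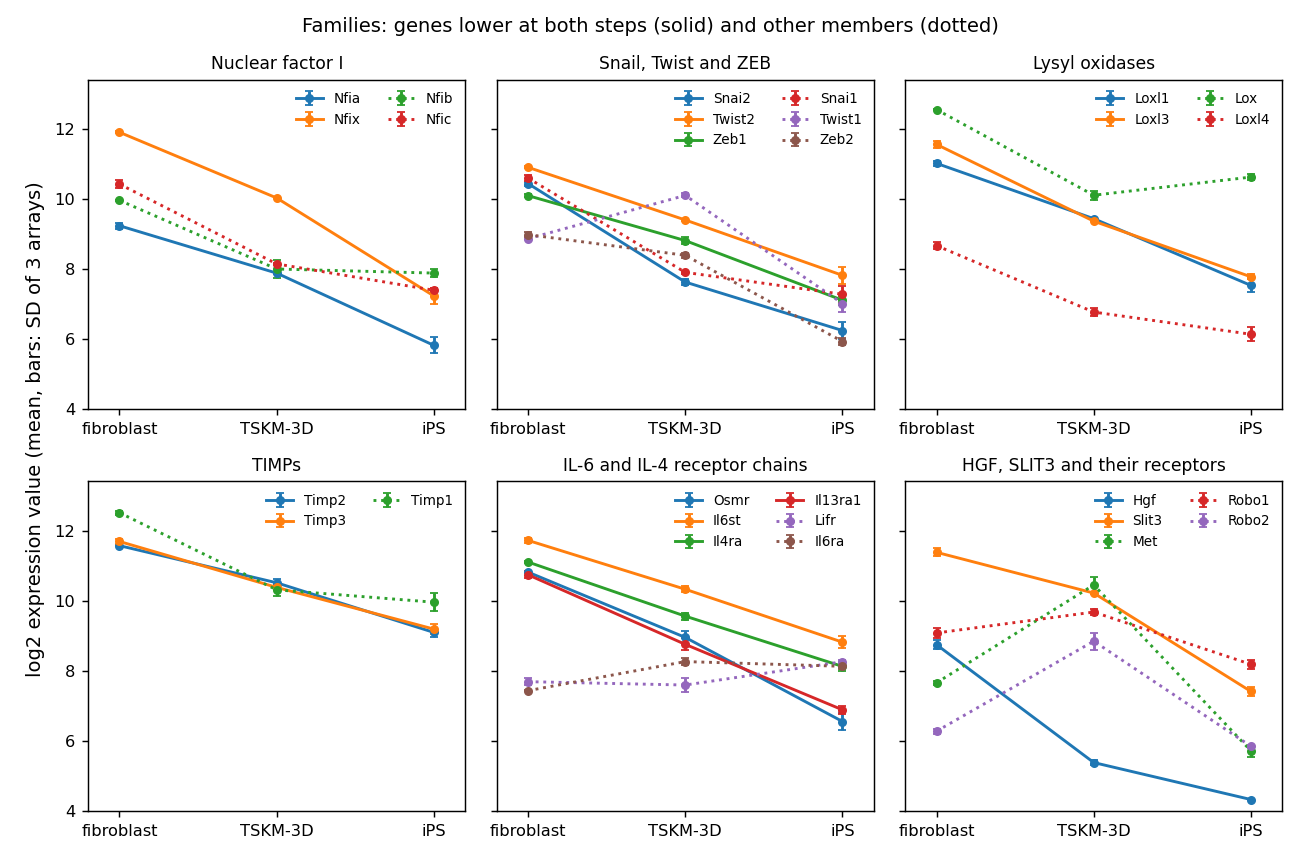
Mean log2 values (points, bars SD of 3 arrays) of gene families by stage, with genes of the group as solid lines and relatives outside it as dotted lines. Solid lines descend at each step, while Lox, Timp1, Nfib and Snai1 change by less than 2-fold after TSKM-3D, and Met, Robo2 and Twist1 are highest there.

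The transcription and chromatin class held 31 genes. Tbx15, a T-box factor of limb and skeletal mesenchyme, had the largest second step of all 219, with 10.56, 10.49 and 10.63 in fibroblasts, 9.26, 9.17 and 9.30 at TSKM-3D and 5.70, 5.61 and 5.83 in iPS cells. Its steps were 2.49-fold and 11.6-fold. Vdr, the vitamin D receptor, read 10.18, 10.12 and 10.02, then 7.98, 7.93 and 7.98, then 5.48, 5.56 and 5.82, with falls of 2.14 and 2.34. Creb3l1, which drives collagen secretion, had the larger first step (2.40 and 1.07).

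The factors of mesenchymal transition divided between the patterns. Snai2 read 10.38, 10.45 and 10.49 in fibroblasts, 7.58, 7.58 and 7.72 at TSKM-3D and 6.03, 6.49 and 6.21 in iPS cells. Twist2 had nearly equal steps of 1.5 and 1.58, and Zeb1 had steps of 1.28 and 1.70. Their relatives are outside the group. Snai1 changed by -2.69 and -0.63, Zeb2 by -0.59 and -2.46, and Twist1 by 1.24 and -3.08, the last being a rise at TSKM-3D (limma, adjusted p = 2.5e-06).

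Of the nuclear factor I family, Nfix read 11.92, 11.91 and 11.87 in fibroblasts, 10.03 on each TSKM-3D array and 6.96, 7.35 and 7.38 in iPS cells. Nfia had falls of 1.35 and 2.06, but another array row of Nfia read 6.96, 7.51 and 5.57 and was higher at TSKM-3D than in fibroblasts. Nfib and Nfic fell at TSKM-3D by 1.96 and 2.28 (limma, adjusted p = 1.3e-07 and 2.1e-09) and stayed within 2-fold thereafter (-0.12 and -0.75). On the curated list of 73 measured mesenchymal transcription factors, 26 fell and 3 rose at TSKM-3D, 32 fell and 2 rose in iPS against TSKM-3D, and 12 belong to the group (16.4%, against 1.098% of all genes). The shares over all genes were 7.58% lower and 3.25% higher at the first step and 8.57% lower and 6.48% higher at the second. These include Ebf3, Hic1, Shox2 and Zfhx4 beside those named above. The class also holds both teashirt factors Tshz1 and Tshz3, the Notch coactivator Maml2, Pbx3, Irf2 and the thyroid hormone receptor Thra.

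Adhesion and surface proteins numbered 18. Itga11, the collagen-binding integrin alpha 11 of fibroblasts, read 10.10, 9.98 and 9.81 in fibroblasts, 7.0, 7.06 and 6.90 at TSKM-3D and 5.96, 5.66 and 5.93 in iPS cells, with 72.4% of the fall at TSKM-3D. Flrt2, a guidance and adhesion protein, was similar at 70.7%. Emp1 and Pmp22, tetraspan proteins of the same family, had falls of 1.21 and 2.23 and of 1.72 and 1.87. The protocadherins Pcdh7, Pcdh18 and Pcdh19 had totals of 3.20, 4.23 and 3.85, and the hyaluronan receptor Layn 4.01. Cd34, a sialomucin of mesenchymal and other progenitors, had 1.74 and 2.31. Of 43 measured adhesion genes on a curated list, 12 fell and 1 rose at TSKM-3D, 20 fell and 4 rose in iPS against TSKM-3D, and 6 are in the group (13.95%, against 1.098% of all genes). Of all genes, 7.58% fell and 3.25% rose at TSKM-3D, and 8.57% fell and 6.48% rose in iPS cells.

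The class of cytoskeleton and kinase signalling, with 33 genes, had the lowest median share at TSKM-3D, 45.0% (31.5% to 69.5%). S100a4 (fibroblast-specific protein 1), a calcium-binding protein, read 11.44, 11.45 and 11.46 in fibroblasts, 9.35, 9.12 and 9.35 at TSKM-3D and 6.44, 5.97 and 6.53 in iPS cells, 35.1-fold in all. Arhgdib read 11.54, 11.60 and 11.60, then 10.25, 10.09 and 10.43, then 7.31, 7.32 and 7.5. Dab2, an endocytic adaptor, had the reverse balance with falls of 2.79 and 1.22. Another array row of Dab2 was low and flat, with 3.29, 3.27 and 3.30 at the stages.

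The contractile proteins were called lower mostly at the second step. Of 46 measured genes on a curated list, 4 fell and 3 rose at TSKM-3D, 25 fell and 1 rose in iPS against TSKM-3D, and Cnn1 (calponin) and Actg2 (smooth muscle gamma actin) are the 2 in the group, with falls of 1.37 and 1.90 and of 1.09 and 1.58. These are 4.35% of the list, against 1.098% of all genes in the group, and over all genes 7.58% fell at the first step and 8.57% at the second. Acta2 was 13.05 ± 0.03, 13.12 ± 0.06 and 11.80 ± 0.05 (SD, n = 3 each), with a change of 0.07 at TSKM-3D and of -1.32 in iPS cells.

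**Figure D4:**
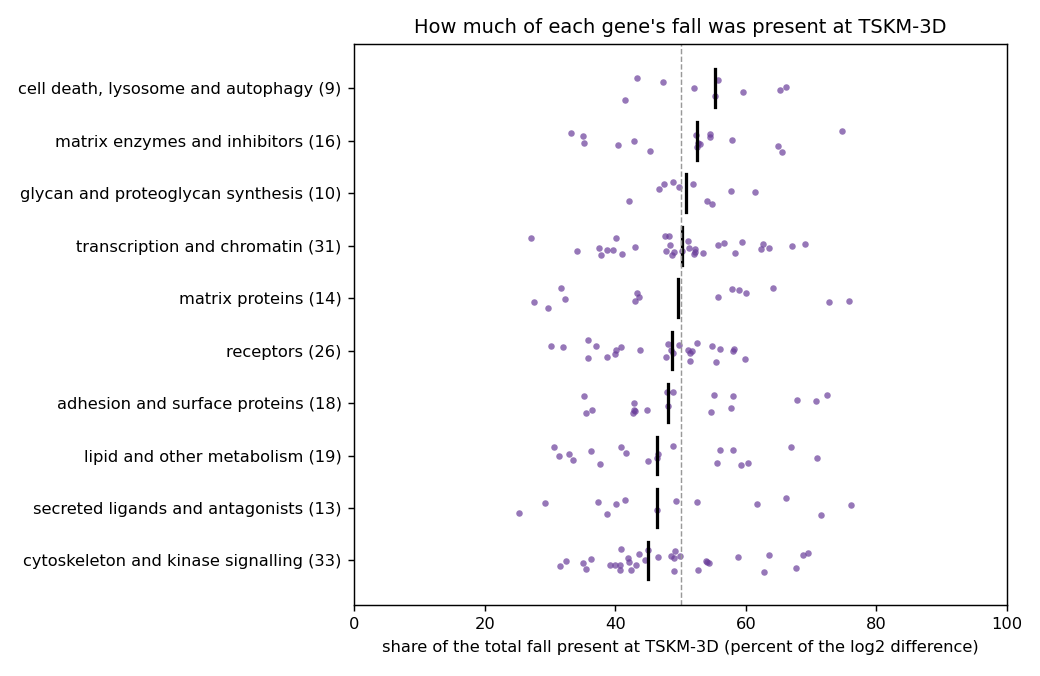
The share of each gene's total log2 fall that was present at TSKM-3D (percent, 1 point per gene, jittered vertically), by role, with the median as a black bar and the number of genes in brackets. Medians lie between 45.0% and 55.2%, and genes of each role spread on both sides of 50%.

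Genes of cell death, lysosome and autophagy (9) included the death protease Casp8, with 10.32, 10.31 and 10.37 in fibroblasts, 8.28, 7.72 and 8.40 at TSKM-3D and 6.30, 6.06 and 5.92 in iPS cells. The necroptosis executor Mlkl had falls of 1.78 and 1.44 and Tnfrsf1a, a receptor upstream of both, 1.11 and 2.00. Ripk3, the kinase of Mlkl, changed by -0.23 and -1.15. The autophagy genes Gabarap, Gabarapl1 and Wipi1 had totals of 2.48, 2.44 and 2.52, and the sphingomyelinase Smpd1 and its relative Smpdl3a 3.09 and 2.98. With Dap and Ctso this class had the highest median share at TSKM-3D, 55.2% (41.5% to 66.1%). Roles were assigned after values were seen and the ranges of the classes overlap, so no class trait is read from this order. Metabolic genes (19) ranged between the peroxidase Gpx8 (30.7% of its fall at TSKM-3D) and the fatty acid carrier Fabp5 (31.4%) on one side and the desaturase family member Fads3 (66.9%) and the mitochondrial folate enzyme Aldh1l2 (70.9%) on the other. Another array row of Fabp5 read 9.46, 8.95 and 6.67. Its changes of -0.51 and -2.27 missed the first threshold.

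The remaining 30 genes were given no role and had total falls between 2.25 and 4.23, among them Fam171b (1.25 and 2.86), Cdkn2c, the cell cycle inhibitor p18 (1.48 and 1.44), and Bace1. Of the other curated lists, the group held 2 of 42 innate immune genes (4.76%), 2 of 22 genes of caveolae and lipid handling (9.09%), 1 of 17 growth arrest genes (5.88%) and 0 of 21 pluripotency genes, against 1.098% of all genes. Of these pluripotency genes 20 rose in iPS against TSKM-3D, as did 6.48% of all genes.

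By chromosome, 19 of the 219 genes (8.68%) lie on chromosome 3, which holds 4.73% of the measured genes. Chromosome 3 was picked after the shares of all chromosomes were seen. Others went the other way, such as chromosome 19 with 0.913% of the group and 3.39% of the measured genes. No concentration is read from these shares. Neighbouring genes of the group were Cacna2d1 and Hgf on chromosome 5, and Mmp19 and Tmem198b on chromosome 10.

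To read the falls on arrays left out of the group means, the rule was applied to 6 arrays at a time and read on the 3 left out. Of 214 genes chosen without the arrays numbered 1, 174 (81.3%) were 2-fold lower at both steps on those arrays, against 1.2% of all genes. Of 229 chosen without number 2 it was 160 (69.9%, against 1.12%), and of 224 without number 3 it was 162 (72.3%, against 1.06%). Every one of the 214, 229 and 224 was lower by some amount at both steps on the arrays left out. The share of all genes that were lower there by any amount was not counted, so nothing is read from this. The arrays share whatever scaling the deposited table carries, so they are not independent experiments.

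The mean over the group was 9.96, 9.94 and 9.91 on fibroblast arrays, 8.40, 8.31 and 8.45 on TSKM-3D arrays and 6.76, 6.80 and 6.76 on iPS arrays. The second TSKM-3D array was the lowest of its group for 98 of the 137 genes that had no equal values there. In the other 82 genes (37.4%) at least 2 TSKM-3D arrays held exactly the same value, and in 21 of them all 3 did, against 9.93% of all genes with such a tie. In the group 0 genes were tied on fibroblast arrays and 1 on iPS arrays. Over all genes, ties were found at TSKM-3D in 15.5% of the 9018 genes whose TSKM-3D mean lay between the other stages and in 5.37% of the rest. The other stages showed the same difference. Fibroblast ties were in 25.8% of genes with the fibroblast mean in the middle and in 7.49% of the rest, and iPS ties in 18.4% and 4.51%. Ties were thus not particular to TSKM-3D. It is the middle stage for all genes of the group, but their 37.4% was above the 15.5% of all genes with TSKM-3D in the middle. Of 36 genes that were 2-fold higher at both steps, 11 were tied at TSKM-3D. Why ties arose was not tested. For the tied genes the spread between TSKM-3D arrays is no measure of error, and their standard errors may be too small. For 13 genes of the group, 19 other array rows exist, of which 13 were lower at both steps and 2, of Uprt and Adgrl2, were 2-fold lower at both. The other 6 rows, of Tax1bp3, Dab2, St3gal1, Adgrl2, Nfia and Steap2, were higher at a step.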

How the data were processed

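RNA from 9 mouse cell samples was measured on an Affymetrix whole-transcript array. The authors deposited log2 expression values for 34760 rows, and how they were scaled is not given in the sources used here; they were used as deposited. Of the rows, 21640 carried 1 gene symbol in the platform annotation, and 19937 genes were each represented by the row with the highest mean. The gene group and the gene lists were chosen with earlier results of these data known, and roles were assigned after values were seen.

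All 9 arrays entered one linear model per gene (limma 3.58.1, R 4.3.3; lmFit, eBayes, Benjamini-Hochberg over all genes), and a gene was called at an adjusted p under 0.05 and 2-fold; the fit was tested on simulated data. The rest was computed in Python 3.11.15 with pandas 2.3.3. Named by rule were the genes with the largest total, first and second falls, the highest fibroblast and iPS values, the most equal steps among genes with a total fall of at least 3 (log2), those next to the thresholds, and members of the lists. Deviations of arrays with the same replicate number correlated between -0.10 and 0.06, so the numbers were not taken to pair samples. Precision is limited by having 3 arrays for each stage. Of the list symbols, 12 were matched through older names.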

Additional observations from a re-analysis of the deposited data

How the results depend on the processing

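The number of genes lower at both steps, 219, depended on the fold threshold, as its construction sets it: 699 at 1.5-fold and 25 at 3-fold. It was 193 after quantile normalization (174 shared), 289 with array medians set equal, 212 with the mean of a gene's rows, 225 with group medians and 214 to 229 with 1 array or 1 replicate number left out. With the third fibroblast array placed with TSKM-3D it was 252, of which 126 are in the group. Testing against a 2-fold change with limma treat left 69 of 226 genes lower at both steps, 797 of 1511 at the first and 1128 of 1709 at the second, since it asks for more than the fold alone. With the replicate block these counts were 226, 1511 and 1709. Leaving out 1 array gave 220 to 233, 1488 to 1612 and 1625 to 1802. The group's median first fall (1.39) was 1.27 after quantile normalization and 1.34 to 1.42 with 1 array left out. Its median second fall (1.44) was 1.53 after quantile normalization, 1.56 with array medians set equal, 1.42 to 1.499 with 1 array left out (the highest without the second iPS array), and 1.49 without the genes tied at TSKM-3D, an alternative chosen after seeing the data. The share at TSKM-3D (49.0%) was 45.9% after quantile normalization and 47.8% to 49.9% with 1 array left out. Setting array medians equal put the median second change of all genes at -0.13, against -0.01 as deposited. Why quantile normalization moves the group's medians was not tested.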

Other observations

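Among array rows that carry no single gene symbol, 23 of 11799 unnamed rows (0.195%) and 3 of 1321 rows with several symbols (0.227%) were 2-fold lower at both steps, against 235 of 21640 rows with 1 symbol (1.09%).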
